A study of Homo sapiens with 15 samples.

Results

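TRIB1, TRIB2 and TRIB3 are the 3 Tribbles pseudokinases among the 20806 gene entries counted in C4-2 cells, a castration-resistant human prostate cancer line derived from LNCaP. They were taken by gene symbol, and they were selected on their measured levels across these same libraries, so their levels and differences between lines are given as a description. Where the text says that a member passed the threshold applied to all genes, this only places it beside the share of all genes that did, and is no independent test of it. The study deleted ATGL (gene symbol PNPLA2), the lipase that takes the first fatty acid off stored triglyceride, and put versions of it back. The lines were knockout cells with ATGL S404A added back (KO_S404A), knockout cells with the lipolytically inactive ATGL S47A (KO_S47A), knockout cells with wild type ATGL (KO_WT), knockout cells with nothing added back (KO) and a scramble control (Scramble). Each line had 3 poly(A) RNA libraries, 15 in all, and every line was grown in medium with 5 mM glucose and 5% dialyzed serum. The addback lines all carry the ATGL deletion. With 1 line per genotype, and no statement of which lines are clones or pools, an effect of genotype and one of the particular line cannot be told apart. The libraries of a line were numbered 1 to 3 in the labels, which do not say that they came from separate cultures, so the spread and p-values may be technical.

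Tribbles proteins have the fold of a kinase but little or no catalytic activity, and they work as scaffolds. Their C-terminal tail recruits the ubiquitin ligase COP1, and the pseudokinase domain holds a substrate such as the transcription factor C/EBPα, which COP1 then marks for degradation; other contacts reach the kinases MEK1 and AKT. TRIB3 is also a transcriptional target of ATF4 and CHOP, factors of the stress and amino acid response that follows phosphorylation of eIF2, and the TRIB3 protein is known to restrain ATF4 in turn.

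Between 40846694 and 64345775 reads per library were counted in genes, and 14246 genes passed the filter on low counts, all 3 Tribbles genes among them. PNPLA2 averaged 11.3 ± 1.99 CPM (TMM-scaled read counts at a common library size) in KO cells and 48.9 ± 4.76 CPM in Scramble cells (SD, n = 3 each), and 413, 129 and 220 CPM in KO_S404A, KO_S47A and KO_WT cells. The counts thus follow the labels for deletion and addback. Counts per gene cannot tell the wild type, S47A and S404A forms apart, so which form each addback line carries rests on the labels. All 10 luminal prostate markers were expressed, with a summed level of 6090 to 6703 CPM in KO and 7961 to 8194 CPM in Scramble libraries, while 9 of 11 stromal, endothelial and blood markers and 3 of 6 basal markers averaged under 1 CPM. Library number moved with many genes: 6451 of the 14246 tested differed between the 5 libraries numbered 3 and the 10 numbered 1 and 2, which is 45.3% (adjusted p under 0.05, edgeR quasi-likelihood test with line in the model). The members' main differences are therefore also given without the libraries numbered 3. The labels do not say what the numbers stand for.

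Upstream sequence is shown for TRIB2 and TRIB3, the members whose levels differed most between lines or library numbers, from RefSeq on GRCh38.p14. The TRIB2 stretch is chr2:12716686-12716935 and the TRIB3 stretch, the first of its 3 annotated starts, is chr20:381045-381294, both on the plus strand and both the 250 bases before a start site. Capitals mark a forkhead motif, TGTTTAC.

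TRIB2: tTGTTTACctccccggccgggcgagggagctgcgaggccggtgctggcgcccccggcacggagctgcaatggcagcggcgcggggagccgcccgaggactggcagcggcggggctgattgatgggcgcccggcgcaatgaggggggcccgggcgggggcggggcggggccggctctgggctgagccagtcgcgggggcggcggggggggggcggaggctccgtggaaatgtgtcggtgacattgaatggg
TRIB3: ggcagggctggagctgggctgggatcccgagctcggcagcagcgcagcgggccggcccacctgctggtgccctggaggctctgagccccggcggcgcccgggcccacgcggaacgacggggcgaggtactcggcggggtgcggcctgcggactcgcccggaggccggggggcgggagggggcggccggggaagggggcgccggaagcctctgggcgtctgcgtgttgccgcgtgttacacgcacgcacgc

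Both strands of each stretch and the 50 bases after each start were searched for the forkhead motif TGTTTAC, the C/EBP letters TTGCNNAA, the ATF/CREB core TGACGT and the ATF4 composite element TGATGNAAN. The letters TTGC of the C/EBP motif can lie within a composite element read on the other strand. The TRIB2 window held the forkhead letters once, which 4.19% of 27305 genes with a RefSeq promoter window also do, and none of the others. The 3 TRIB3 windows, which overlap for most of their length, held none of the 4 motifs. An element outside the windows would not have been seen, so TRIB3 may have one elsewhere. The composite element is in a window of 4.45% of genes and of 11 of the 31 ATF4 and CHOP target genes with a window. To show what it looks like, it stands in capitals below in 3 of them: ASNS makes asparagine, CHAC1 degrades glutathione and FGF21 is a hormone of fasting and stress. The stretches are chr7:97872452-97872492 (minus strand), chr15:40953245-40953285 (plus) and chr19:48755453-48755493 (plus); in CHAC1 and FGF21 the element runs against the gene, so its letters appear as the reverse complement.

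ASNS: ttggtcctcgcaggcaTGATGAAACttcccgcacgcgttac
CHAC1: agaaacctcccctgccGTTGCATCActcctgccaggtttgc
FGF21: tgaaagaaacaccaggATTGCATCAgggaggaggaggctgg

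TRIB2 was the member that set the knockout-derived lines furthest apart from the control. TRIB2, an oncogene in acute myeloid leukaemia that destroys C/EBPα and represses FOXO factors, had 2.86, 1.32 and 1.61 CPM in the KO libraries numbered 1, 2 and 3, against 16.5, 13.0 and 21.8 CPM in the Scramble libraries. The lowest Scramble library was far above the highest KO library, and the ranges did not overlap. Here and below, the share of all genes that separate in this way is not given, so a lack of overlap is a description only. In reads, the 12 knockout-derived libraries held 47 to 139 counts of TRIB2 each and the 3 Scramble libraries 629 to 1115. TRIB2 was 8.91-fold lower in KO than in Scramble cells (log2 difference -3.15, SE 0.28), the 45th lowest of the 14246 differences, and the log2 difference was -2.83 with libraries numbered 1 and 2 only. Because these are bulk samples, fewer cells with TRIB2 and less TRIB2 RNA per cell cannot be told apart.

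No addback line had TRIB2 near the Scramble level. It measured 1.42, 1.58 and 1.89 CPM in KO_S404A libraries, 1.24, 1.41 and 0.948 CPM in KO_S47A libraries and 1.34, 1.17 and 1.36 CPM in KO_WT libraries. All of these lie under the lowest Scramble library, and PNPLA2 in the same lines was above its Scramble mean. Against KO, the log2 differences were -0.24 (SE 0.27) in KO_S404A, -0.68 (SE 0.28) in KO_S47A and -0.57 (SE 0.28) in KO_WT cells. These rest partly on the KO library numbered 1, the highest of its line: without it the differences were 0.15, -0.28 and -0.18. KO_S404A libraries, at 1.42 to 1.89 CPM, lay just above KO_WT libraries, at 1.17 to 1.36 CPM, with a log2 difference of 0.33 (SE 0.28).

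**Figure D1:**
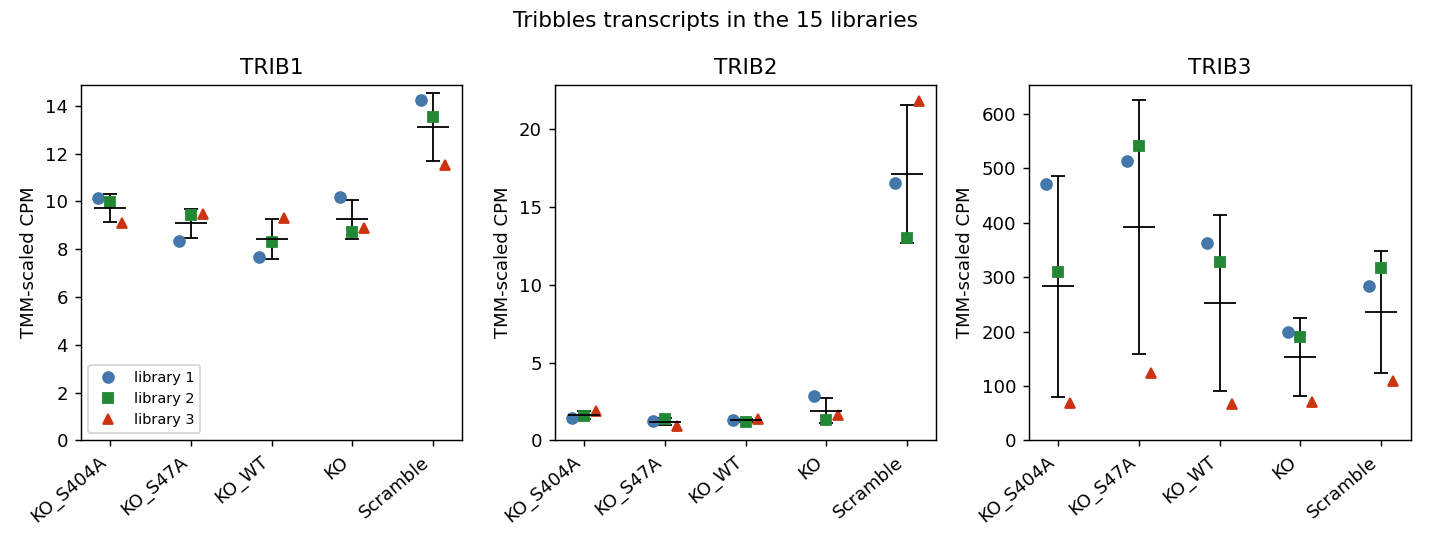
TMM-scaled CPM of TRIB1, TRIB2 and TRIB3 (linear axes from 0) in the 5 lines; points are libraries, marked by number, and lines with bars give the mean and SD of 3. TRIB2 lies between 0.948 and 2.86 CPM in all 12 knockout-derived libraries and between 13.0 and 21.8 CPM in Scramble; TRIB3 is lowest in library 3 of every line.

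TRIB1 was also lower in every knockout-derived line than in Scramble cells, with a far smaller gap. TRIB1, which brings C/EBPα to COP1 and lies at a locus linked to blood triglyceride, had 10.2, 8.70 and 8.88 CPM in KO libraries, against 14.3, 13.5 and 11.5 CPM in Scramble libraries. The 12 knockout-derived libraries spanned 7.66 to 10.2 CPM, all under the lowest Scramble library. The means were 9.74 ± 0.58 CPM in KO_S404A, 9.08 ± 0.63 in KO_S47A, 8.43 ± 0.84 in KO_WT, 9.26 ± 0.81 in KO and 13.1 ± 1.41 in Scramble cells (SD, n = 3 each). Among the 4 knockout-derived lines the order was KO_S404A, KO, KO_S47A and KO_WT, and neighbours in it overlapped. TRIB1 was lower in KO than in Scramble cells by a log2 difference of -0.50 (SE 0.12), or -0.56 with libraries numbered 1 and 2 only. No addback differed from KO by more than 0.13 on the log2 scale in either direction.

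Set against all genes, 2 of the 3 members, TRIB1 and TRIB2, passed an adjusted p under 0.05 in KO minus Scramble (edgeR quasi-likelihood test), where 383 genes passed, 2.69% of those tested. Nothing is read from this count, since the same values chose the genes. TRIB1 passed by a narrow margin: it did not pass with only the 2 lines fitted, without the filter on low counts, or when any of 5 of the 6 libraries was left out (log2 difference -0.58 to -0.46); without the Scramble library numbered 3, at -0.59, it passed. TRIB2 passed in every alternative and with every library left out. In each addback comparison 0 of 3 members passed by edgeR without the block: the share of genes passing was 0.0211% in KO_S404A minus KO, 0.00702% in KO_S47A minus KO, 0.0281% in KO_WT minus KO, 0% in KO_WT minus KO_S47A and 0% in KO_S404A minus KO_WT. In these 5 comparisons 581, 2397, 1080, 309 and 1239 genes had an unadjusted p under 0.05, and DESeq2 called 8, 31, 8, 3 and 0; of the members, 1 (TRIB2 in KO_S47A minus KO) had an unadjusted p under 0.05 and DESeq2 called 0.

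The genes beside TRIB2 on chromosome 2 were looked at after its values were seen. Genes under the filter on low counts were skipped. Of the 20 nearest tested genes, 10 on each side, 0 passed in KO minus Scramble by edgeR, with a median log2 difference of -0.02. In edgeR 2 of them, LPIN1 and LRATD1, had an unadjusted p under 0.05, and 1, LRATD1, passed by DESeq2. LPIN1, a phosphatidate phosphatase on one side, had 70.1, 58.2 and 55.3 CPM in KO libraries, against 78.1, 74.3 and 69.8 CPM in Scramble libraries. LRATD1, listed as FAM84A in the files and on the other side, had 0.370, 0.649 and 0.337 CPM in KO libraries, against 3.33, 2.55 and 2.21 CPM in Scramble libraries (log2 difference -2.56, adjusted p = 0.0557 by edgeR and 0.00137 by DESeq2). LRATD1 had the lowest difference of the 20, and it averaged 0.535, 1.38 and 0.545 CPM in KO_S404A, KO_S47A and KO_WT cells. NBAS, the next tested gene along, averaged 33.4 ± 3.23 CPM in KO and 33.1 ± 3.78 CPM in Scramble cells (SD, n = 3 each). Of 20 neighbours of TRIB1 and 15 of TRIB3, 0 passed by edgeR (1 and 1 at an unadjusted p under 0.05; 1 and 0 by DESeq2).

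**Figure D2:**
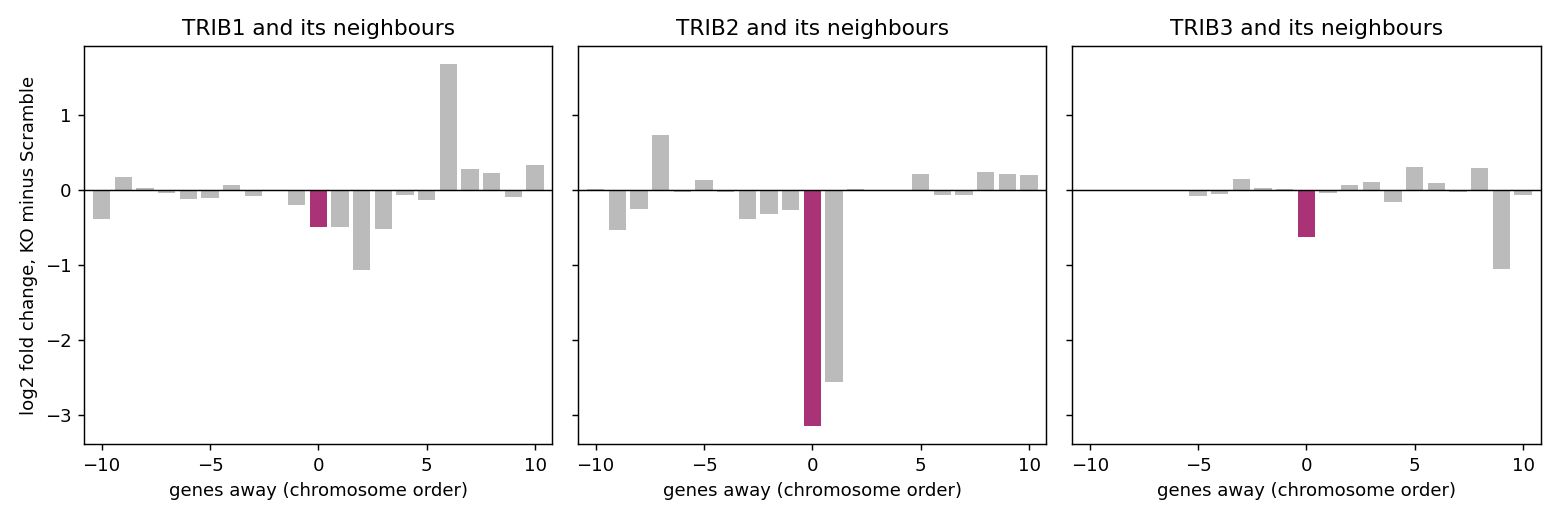
Log2 fold change, KO minus Scramble, of each Tribbles gene (coloured, at 0) and up to 10 tested genes on either side in chromosome order. Bars have no error drawn. Beside TRIB2 at -3.15, LRATD1 stands at -2.56 and the median of the 20 neighbours is -0.02.

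TRIB3 was by far the most abundant member and the one that varied with library number. Per kilobase of the transcript lengths behind the deposited values (3755, 4404 and 2848 bases for TRIB1, TRIB2 and TRIB3), TRIB3 made up 82.6% to 98.6% of the family's level in every library. TRIB2 made up 0.154% to 1.61% of it in knockout-derived libraries, against 2.50% to 10.7% in Scramble libraries. TRIB3 itself had 472, 309 and 68.0 CPM in KO_S404A libraries and 513, 540 and 123 CPM in KO_S47A libraries. It had 363, 328 and 67.9 CPM in KO_WT libraries, 199, 191 and 71.2 CPM in KO libraries and 284, 318 and 109 CPM in Scramble libraries. The library numbered 3 was the lowest of every line.

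The 5 libraries numbered 3 held 67.9 to 123 CPM of TRIB3, against 191 to 540 CPM in the 10 numbered 1 and 2. Library 3 held 0.174 of the mean of libraries 1 and 2 in KO_S404A cells, 0.234 in KO_S47A, 0.196 in KO_WT, 0.365 in KO and 0.362 in Scramble cells, so the gap was wider in the 3 addback lines than in KO and Scramble cells, a difference that was not tested. Over all lines the log2 difference, number 3 minus numbers 1 and 2, was -1.96 (SE 0.15), the 130th lowest of 14246, and 1 of 3 members passed, where 45.3% of genes did. TRIB1, at -0.04 (SE 0.08), and TRIB2, at 0.11 (SE 0.17), had differences smaller than their SE.

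**Figure D3:**
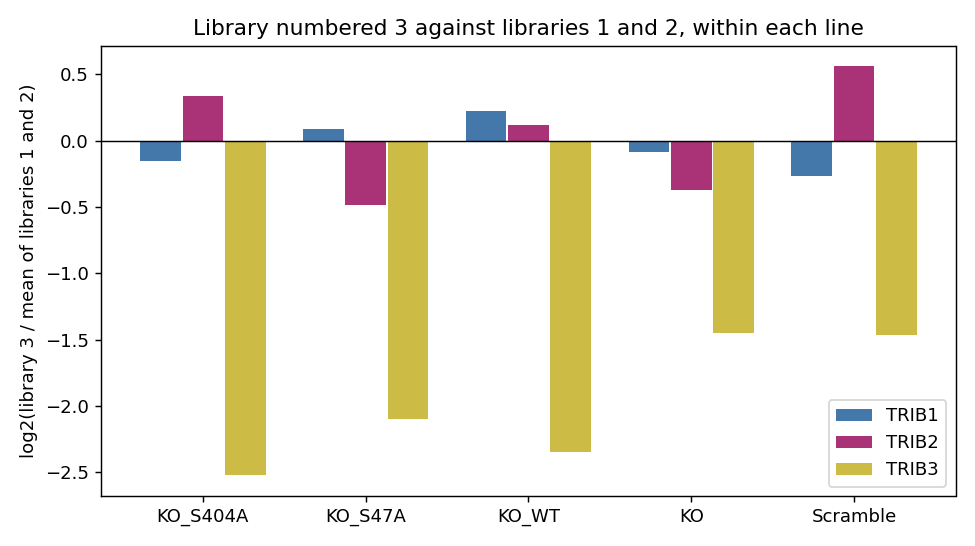
Log2 ratio of library 3 to the mean of libraries 1 and 2 in each line, for the 3 members; each bar is 1 ratio, with no error. TRIB3 bars run from -1.45 in KO to -2.52 in KO_S404A, while TRIB1 and TRIB2 bars lie on either side of 0.

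Between lines, TRIB3 was highest in KO_S47A cells and lowest in KO cells. Its means were 283 ± 203 CPM in KO_S404A, 392 ± 233 in KO_S47A, 253 ± 161 in KO_WT, 154 ± 71.6 in KO and 237 ± 112 CPM in Scramble cells (SD, n = 3 each), and neighbours in this order of levels overlapped. The log2 differences were -0.62 (SE 0.74) for KO minus Scramble, 1.35 (SE 0.75) for KO_S47A minus KO, 0.72 (SE 0.75) for KO_WT minus KO, 0.88 (SE 0.75) for KO_S404A minus KO, -0.63 (SE 0.74) for KO_WT minus KO_S47A and 0.16 (SE 0.74) for KO_S404A minus KO_WT. These standard errors include the gap between library numbers.

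Compared number by number, part of that spread drops out. TRIB3 in KO_S47A cells was 2.58, 2.83 and 1.73 times the KO library of the same number. KO cells had 0.70, 0.60 and 0.65 times the Scramble level, lower in all 3 pairs. KO_WT cells had 1.83, 1.72 and 0.95 times the KO level and KO_S404A cells 2.37, 1.62 and 0.96 times, so in library 3 these addbacks stood just under the KO level. Taking the numbers to pair libraries was a working choice, which the correlations between libraries cannot show to hold for numbers 1 and 2. All these ratios and the block fits below are therefore a description only. For KO_S404A and KO libraries the numbers were not taken to pair at all. With the replicate number in the model, TRIB3 was higher in KO_S47A than in KO cells by 1.21 (SE 0.20) and passed, as 22.1% of all genes did in that comparison with the block. It was lower in KO than in Scramble cells (log2 difference -0.62, SE 0.20) and did not pass, where 8.29% of genes did. In the same fit TRIB3 was higher than in KO by 0.52 (SE 0.20) in KO_WT and 0.65 (SE 0.20) in KO_S404A cells. KO_WT minus KO_S47A stood at -0.68 (SE 0.20). TRIB3 did not pass in these, where 15, 14 and 3 of all genes did. With libraries numbered 1 and 2 only, the log2 differences were -0.63 for KO minus Scramble, 1.43 for KO_S47A minus KO and 1.00 for KO_S404A minus KO. TRIB3 passed in these 3, where 5.37%, 21.6% and 2.81% of genes did. KO_WT minus KO, at 0.83 with those libraries, did not pass, where 43 genes did. The comparisons with KO share its libraries.

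**Figure D4:**
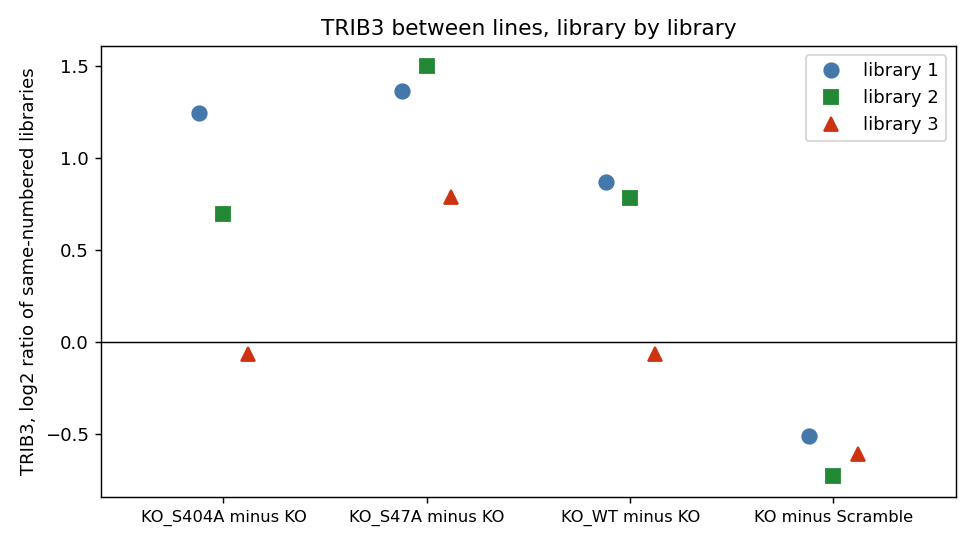
Log2 ratio of TRIB3 between same-numbered libraries of 2 lines. Each point is 1 pair by label, a working choice, and the numbers were not taken to pair KO_S404A with KO. KO_S47A minus KO is above 0 in 3 of 3 pairs, KO minus Scramble below 0 in 3 of 3, and the number 3 pairs of KO_WT and KO_S404A lie just under 0.

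The factors upstream of TRIB3 followed the library numbers too. ATF4, the factor translated when eIF2 is phosphorylated, had 371 CPM in the KO library numbered 3, against 866 and 854 CPM in numbers 1 and 2. DDIT3, which encodes CHOP, had 12.9 CPM there, against 28.4 and 26.3 CPM. Of 17 eIF2 kinases and axis factors tested, 13 were lower and 1 higher in libraries numbered 3 (edgeR, adjusted p under 0.05), with a median of -0.87, against -0.02 over all genes. That is 82.4% of the list, against 45.3% of all genes passing in the same contrast. The lists were chosen with earlier results of these data known, and their genes share 1 split of the libraries. Here and below, the shares of the lists are therefore a description and no independent support. The largest were DDIT3 (-2.16), NUPR1, a stress-induced cofactor (-1.91), ATF3 (-1.57) and CEBPB (-1.48), and ATF4 stood at -1.46.

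Of the genes that ATF4 and CHOP turn on, 37 of the 38 tested were lower in libraries numbered 3 and 0 higher, with a median of -1.13; the list's share passing was 97.4%, against 45.3% of all genes. The largest were FGF21 (-3.82), SLC6A9, a glycine transporter (-2.63), CHAC1 (-2.61) and INHBE (-2.56); ALDH18A1, a proline synthesis enzyme, did not pass (-0.02). Proliferation genes ran the other way: 30 of 30 were higher in libraries numbered 3, against 45.3% of all genes passing in either direction, with a median of 1.01, led by CCNE2 (1.48), RRM2 (1.30), CCNA2 (1.19) and CDK1 (1.16). The summed level of proliferation genes was 5933 to 7238 CPM in libraries numbered 3 and 2488 to 5116 CPM in numbers 1 and 2. Its part in the TRIB3 difference was not tested.

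Between lines, few of these genes passed without the replicate block. KO minus Scramble gave EIF2AK2, the double-stranded RNA sensor PKR, higher (log2 0.37, adjusted p = 0.0187) and SQSTM1, an autophagy receptor reported to bind TRIB3, lower (log2 -0.71, adjusted p = 0.0387), both by edgeR. SQSTM1 had 133, 128 and 110 CPM in KO libraries, against 207, 236 and 167 CPM in Scramble libraries. With 1 library left out, 0 genes of all the lists passed without the Scramble libraries numbered 1 or 2 or the KO libraries numbered 1 or 3, 1 without KO number 2 and 3 without Scramble number 3. Of the ATF4 and CHOP targets 0 of 38 passed in KO minus Scramble (median -0.32, 0 at an unadjusted p under 0.05, 0 by DESeq2) and 0 of 38 in KO_S47A minus KO (median 0.74, 4 at an unadjusted p under 0.05, 0 by DESeq2). Of all genes, 2.69% passed in KO minus Scramble and 0.00702% in KO_S47A minus KO, so these counts of 0 are no result about the list.

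With the replicate number in the model, KO_S47A minus KO gave 33 of 38 ATF4 and CHOP targets higher and 0 lower, 11 of 17 axis factors higher and 1 lower, and 30 of 30 proliferation genes lower; 22.1% of all genes passed there. The largest targets were FGF21 (2.14), INHBE (1.82), HERPUD1, an endoplasmic reticulum stress gene (1.66), and GDF15, a stress hormone (1.62). DDIT3 stood at 2.07 and ATF4 at 0.73, and EIF2S1, which encodes eIF2α, was the 1 axis factor lower (-0.25). In KO minus Scramble with the block, 3 of the 38 targets passed, all lower: GDF15 (-1.14), ADM2 (-0.93) and SLC7A11, the cystine transporter (-0.62). This count is near the 8.29% of all genes that passed there and is no result about the list. Of the 17 axis factors, ATF4 (-0.63) and XBP1 (-0.92) were lower and EIF2AK2 (0.37) higher in the same fit.

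**Figure D5:**
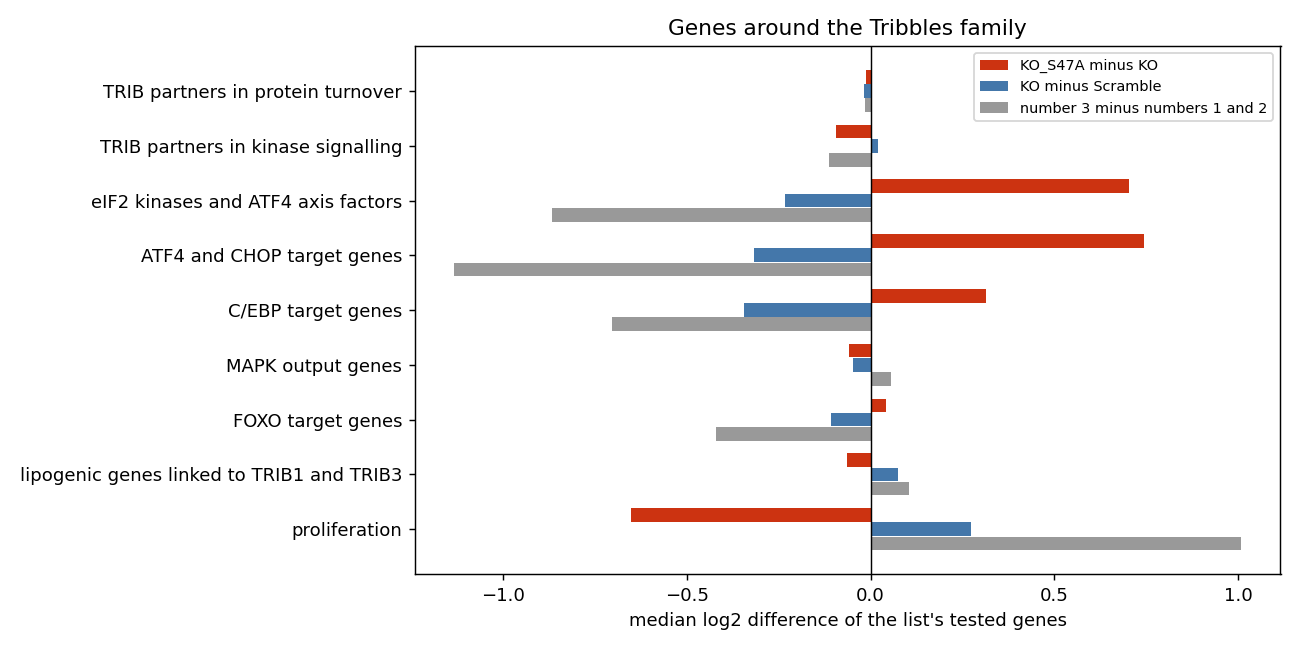
Median log2 difference of the tested genes of each list in KO_S47A minus KO, KO minus Scramble (no replicate block) and libraries numbered 3 minus 1 and 2; bars have no error. ATF4 and CHOP targets stand at 0.74, -0.32 and -1.13, and proliferation genes at -0.65, 0.27 and 1.01.

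Of the partners through which Tribbles proteins act, 1 passed in KO minus Scramble without the replicate block, and more did in KO_S47A minus KO with it. COP1, listed as RFWD2 in the files, averaged 35.6 ± 2.82 CPM in KO and 37.8 ± 0.90 CPM in Scramble cells (SD, n = 3 each). CEBPA, the substrate that TRIB1 and TRIB2 bring to COP1, averaged 27.1 ± 2.06 CPM in KO and 34.4 ± 5.13 CPM in Scramble cells (log2 difference -0.34, SE 0.18, adjusted p = 0.471 by edgeR). MAP2K1, which encodes MEK1, had a log2 difference of 0.06 (SE 0.10) and AKT1 one of 0.03 (SE 0.21). Of 16 protein turnover partners 0 passed in KO minus Scramble (2 at an unadjusted p under 0.05, 0 by DESeq2), and of 17 kinase signalling partners SQSTM1 alone did. Of all genes 2.69% passed there, so these counts are no result about either list. With the replicate block, KO minus Scramble gave JUN (-0.40) and SQSTM1 (-0.70), both lower, where 8.29% of all genes passed. KO_S47A minus KO with the block gave 1 turnover partner higher, CEBPB (0.73), and 2 lower, CEBPA (-0.41) and the ubiquitin-conjugating enzyme UBE2D1 (-0.34). Among the kinase partners 0 were higher and 2 lower there, AKT1 (-0.50) and MAP3K11 (-0.48). In both lists the share passing was below the 22.1% of all genes in that fit. By library number, 1 turnover partner was higher (CEBPA, 0.33) and 3 lower (CEBPB, DET1 at -0.55, CUL4B at -0.28), and 4 kinase partners were higher and 4 lower, AKT1 at 0.41 and MAP2K1 at 0.15 among the higher. These are 25% and 47.1% of the lists, below and near the 45.3% of all genes that passed, so the counts are no result about the partners.

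Target genes of pathways that Tribbles proteins are reported to act on passed between lines mainly with the replicate block. Whether they respond to Tribbles genes in these cells was not tested. In KO minus Scramble without it, 0 of 7 tested C/EBP targets (of 20 listed), 0 of 17 MAPK output genes, 0 of 20 FOXO targets and 0 of 18 lipogenic genes passed by edgeR. Of all genes 2.69% passed there, so these counts of 0 are no result about the lists. In the same order, 0, 3, 3 and 1 had an unadjusted p under 0.05, and DESeq2 called 0, 1, 0 and 1. With the block, 0 C/EBP targets, 1 MAPK output gene (DUSP5, -1.18), 4 FOXO targets (SESN3, KLF6, CCNG2 and BCL6, -0.71 to -0.37) and 2 lipogenic genes (ELOVL6, -0.49, and SREBF2, -0.66) passed, all lower, where 8.29% of all genes passed. The C/EBP, MAPK and lipogenic counts are below or near that share and are no result about those lists.

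In KO_S47A minus KO with the block, 22.1% of all genes passed. The 7 C/EBP targets tested had 3 higher, LTF (2.22) and CEBPB (0.73) among them, and 1 lower, CEBPA (-0.41). The 20 FOXO targets had 6 higher, led by FBXO32 (1.21) and GADD45A (1.08), and 1 lower. The 17 MAPK output genes had 0 higher and 2 lower, CCND1 (-0.48) and IER2 (-0.42). The 18 lipogenic genes had ME1 (0.45) higher and 3 lower, FASN (-0.74), DGAT2 (-0.58) and ACLY (-0.38). The lipogenic share was near that of all genes and the MAPK share below it, so these counts are no result about either list.

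By library number, where 45.3% of all genes passed, the FOXO targets had 1 higher (TXNIP, which restrains glucose uptake, 1.68) and 12 lower, led by FBXO32 (-1.83), GADD45A (-1.18) and CCNG2 (-0.90). The C/EBP targets had 2 higher and 4 lower, among them lactoferrin, LTF (-3.59), and PPARG (-0.70). The lipogenic genes had 6 higher, ELOVL6 (0.64) and DGAT2 (0.50) among them, and 2 lower, ME1 (-0.83) the largest. The MAPK output genes had 1 higher, EPHA2 (0.25), and 1 lower, MYC (-0.31). The shares passing were 65% of the FOXO, 85.7% of the C/EBP, 44.4% of the lipogenic and 11.8% of the MAPK output genes. The lipogenic share was near that of all genes and the MAPK share below it. The C/EBP share rests on the 7 genes tested of 20 listed, CEBPA and CEBPB among them, which are also counted with the partners. It is too small a set to speak for C/EBP targets at large.

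The genes most like each member across the 15 libraries, by Pearson's r of log2 CPM, differed between members. The libraries fall into clusters (Scramble against the rest for TRIB1 and TRIB2, numbers 3 against the rest for TRIB3), so r over all 15 mostly measures that split and is a description. For TRIB3 the 5 nearest were STC2 (0.996), SESN2, SLC6A9, PCK2 and SHMT2 (0.992), and ATF4 had 0.981 and DDIT3 0.965; within the 10 libraries numbered 1 and 2 these last were 0.890 and 0.986. For TRIB2 they were FN1, the matrix protein fibronectin (0.972), THBS1, FAM199X, ROBO1 and SEPT11 (0.964), and within the 12 knockout-derived libraries FN1 had 0.505. For TRIB1 they were FN1 (0.912), PPIL2, VPS13A, PTPRK and MICAL1 (0.902), with 0.724 for FN1 within the 12. TRIB1 and TRIB2 had 0.861 over all 15 libraries and 0.420 within the 12, and TRIB3 had 0.04 with TRIB1 and -0.06 with TRIB2.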

How the data were processed

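Poly(A) RNA was sequenced from 15 libraries of 5 C4-2 lines. The deposited files hold, for each gene, the authors' raw read count and an FPKM value, per the file headers; the submitters' processing notes list STAR and CASAVA, without versions, and neither they nor the headers give the genome build, annotation or strand setting. Unassigned reads, 13.2% to 20.6% of a library, were left out. FPKM was used only to recover transcript lengths.

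Counts were scaled by TMM and tested with edgeR 4.0.16 in R 4.3.3 (filterByExpr, quasi-likelihood fit, 1 mean per line over all 15 libraries, 10 residual degrees of freedom); genes with a Benjamini-Hochberg adjusted p under 0.05 over the 14246 tested are called passing. The standard error is the log2 fold change over the root of F. The contrast of library numbers had line as a term. Log2 CPM for correlations used a prior count of 2. The script was tested on simulated counts. Alternatives were RLE size factors, no filter on low counts, DESeq2 1.42.0, only the 2 lines compared, the replicate number as a block, libraries numbered 1 and 2 only, and leaving out each library. Libraries of a line differed by chi-square over degrees of freedom of 8.11 to 239, so none was a duplicate.

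The replicate numbers come from the labels. Residuals of same-numbered libraries correlated at 0.126 to 0.499 for number 1, 0.0197 to 0.331 for number 2 and 0.404 to 0.675 for number 3. Every pair was above 0.1 in 5 of the 6 line comparisons, KO_S404A minus KO being the exception, and the numbers were taken to pair the libraries in those 5. This was a working choice. The line mean was subtracted, so the gap of number 3 alone makes residuals of numbers 1 and 2 alike across lines. These correlations therefore cannot show that libraries numbered 1, or those numbered 2, belong together.

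The members and the gene lists were chosen with earlier results of these data known, as were the motifs and the neighbouring genes. Named genes are the members, PNPLA2, 7 fixed genes, and from each list up to 4 passing genes with the largest change and a mean of at least 1 CPM, plus the 5 most like each member; 1 gene that this rule names is not reported here. Promoter sequences are RefSeq's, on GRCh38.p14; TRIB1's was not used here.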

Additional observations from a re-analysis of the deposited data

How the results depend on the processing

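Of 240 recomputed differences of the 3 members, 235 moved by less than 1 SD of the replicates and 5 by more. The 5 were TRIB1 in KO_S404A minus KO_WT with libraries numbered 1 and 2 only (0.33) and TRIB2 in the 4 comparisons with KO when its library numbered 1 was left out. Differences passing in the opposite direction numbered 0, but some changed sign without passing, and calls were lost or gained. TRIB1 in KO minus Scramble lost its call in 5 of 6 fits with a library left out. It also did so without the filter and with only the 2 lines. TRIB3 gained a call in KO_S47A minus KO with the block. With libraries numbered 1 and 2 only, TRIB3 gained one there, in KO minus Scramble and in KO_S404A minus KO. With each library left out in turn, TRIB2 ranged from -3.55 to -2.94 in KO minus Scramble, from -0.79 to -0.18 in KO_WT minus KO, from -0.89 to -0.28 in KO_S47A minus KO and from -0.45 to 0.15 in KO_S404A minus KO.

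Genes of the fixed lists passing numbered 2 in KO minus Scramble without the block, 16 with the replicate block, 17 with libraries numbered 1 and 2 only and 4 by DESeq2. In KO_S47A minus KO they numbered 0, 94 with the block and 102 with libraries numbered 1 and 2 only. With those libraries only they numbered 4 in KO_WT minus KO and 42 in KO_S404A minus KO, against 0 each. The cause was not tested. That alternative was chosen after seeing the data for the lists.

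Over all genes, passing counts in KO minus Scramble were 383 without the block, 1181 with the block, 770 with libraries numbered 1 and 2 only, 667 by DESeq2 and 205 to 291 with a library left out. In the same order, in KO_S47A minus KO they were 1, 3150, 3098, 31 and 1 to 15; in KO_WT minus KO 4, 15, 43, 8 and 3 to 5; in KO_S404A minus KO 3, 14, 403, 8 and 1 to 4. In KO_WT minus KO_S47A they were 0, 3, 2, 3 and 0. Fitting only the 2 lines gave 2 in KO_WT minus KO and 1 in KO_S404A minus KO. The block changed no other member's call than TRIB3 in KO_S47A minus KO.

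The median correlation of the 5 genes most like each member, after line means were subtracted, was 0.57 for TRIB1, 0.34 for TRIB2 and 0.996 for TRIB3. Subtracting line means does not remove the split by library number, which the TRIB3 value still holds. TRIB2 rests on 47 to 139 reads in each knockout-derived library, which limits its comparison among those lines. 9 of 15 libraries correlated best with a library of their own number.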
